A study of Mus musculus with 12 samples.

Results

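Cytosolic ribosomal protein genes were taken as every gene of the expression table whose symbol is Rpl, Rps or Rplp with a number, and at most 1 closing letter a, x or l, together with Rpsa. The rule found 78 of 18546 genes, 46 of the large subunit and 32 of the small subunit. RNA came from hematopoietic stem cells (HSCs), the blood-forming stem cells, which had been sorted by surface proteins (CD150, Sca1 and cKit present; CD48 and lineage proteins not). The donors were C57BL/6 mice, 10 to 12 weeks old, and the tissue was bone marrow. The 4 groups had 3 libraries each. NrasG12D/+ mice carry 1 activated allele of the Ras GTPase Nras and are called Nras mutants below. Tet2+/- mice have lost 1 copy of Tet2, an enzyme that oxidises methylated cytosine in DNA. NrasG12D/+;Tet2+/- mice, called compound mutants, carry both alleles, and wild-type mice carry neither. The design text gives 3 mice a genotype. How the alleles were made, and any Cre driver, is not given in the sources used here.

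The ribosome is built from ribosomal RNA and a fixed set of proteins, whose messages begin with a run of pyrimidines (the 5′ terminal oligopyrimidine, or TOP, motif) that places their translation under the control of the growth kinase mTOR. The large subunit joins amino acids and carries the stalk of Rplp0, Rplp1 and Rplp2, which recruits the elongation factors, while the small subunit decodes the message. HSCs are known for a low rate of protein synthesis, and inherited loss of 1 copy of many of these genes causes Diamond-Blackfan anemia, a failure of red cell production. Each gene also has processed pseudogenes, copies of its spliced message scattered through the mouse genome, and reads from such a copy and from the parent are hard to tell apart.

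Depth was 19205045 to 36890942 reads in genes per library, recovered from the deposited log2 RPKM (read counts divided by the length of the gene and by the size of the library). Kit stood at 64.7 to 86.0 RPKM in the 12 libraries, Slamf1 (CD150) at 3.17 to 11.3 and Ly6a (Sca1) at 2.21 to 8.32, while Cd48 reached at most 1.28. Nras RNA differed from wild type by a log2 value of 0.03 in Nras mutants (95% interval -0.41 to 0.48), and Tet2 RNA by -0.08 in Tet2 mutants (-0.52 to 0.37), so whole-gene levels are no check of the genotypes. Summed over lists of marker genes, stem cell genes (9) ran from 184 to 234 RPKM in Nras mutants, 241 to 255 in Tet2 mutants, 200 to 232 in compound mutants and 211 to 244 in wild type. Megakaryocyte genes (6 of 6) ran from 38.6 to 56.8 RPKM in Nras mutants, 23.9 to 32.3 in Tet2 mutants, 39.8 to 48.5 in compound mutants and 24.1 to 36.4 in wild type. In this sum both groups with NrasG12D lay above wild type. Pf4 did so by itself, while Gp9 overlapped wild type, at 23.2, 4.14 and 6.55 RPKM in Nras mutants against 6.91, 10.1 and 17.8. Erythroid genes (7 of 8) ran from 11.1 to 25.3 RPKM in Nras mutants, 5.25 to 13.6 in Tet2 mutants, 4.50 to 24.8 in compound mutants and 15.1 to 21.3 in wild type. The sum in Tet2 mutants thus lay below wild type. So did Hbb-bt, at 5.71, 2.98 and 2.27 RPKM against 11.1, 11.2 and 9.48. Hba-a1 overlapped, at 3.49, 2.95 and 0.10 RPKM in Tet2 mutants against 0.68, 1.49 and 0.03 in wild type. B lineage genes (3 of 6) ran from 6.02 to 7.91, 3.07 to 5.96, 3.70 to 4.43 and 4.52 to 6.69 RPKM in the same order, with compound mutants below wild type. Cd79b, most of that sum, overlapped, at 3.69, 4.02 and 2.74 RPKM in compound mutants against 4.78, 3.97 and 5.97 in wild type. Granulocyte and monocyte genes (6 of 9) reached at most 8.71 RPKM with all groups overlapping. T and NK genes (2 of 6) reached at most 11.1 RPKM and stroma and endothelium genes (2 of 6) 10.9, again with all groups overlapping. The part of these sums in the differences given here was not tested. By their Xist and Y-linked RNA, the 4 libraries numbered 1 and Tet2 replicate 3 were male and the other 7 female.

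Rows for pseudogene copies held more reads than the rows of the ribosomal protein genes. Which of the near-identical sequences those reads came from was not tested. In all, 401 other genes of the table were pseudogenes of these 78, of which 176 carry the parent's symbol and 225 matched a parent's coding sequence at 95% identity or more over at least 50% of its length (mm10, GENCODE M21). They held 3471559 reads over the 12 libraries, against 2886102 reads in the 78 genes, which is 120% as many. For 53 of the 78 genes, 34 of the large and 19 of the small subunit, the copies together held more reads than the gene. Summed over all genes, the ratio of pseudogene to parent reads averaged 121% ± 1.64 in Nras mutants, 119% ± 3.31 in Tet2 mutants, 122% ± 0.982 in compound mutants and 119% ± 1.92 in wild type (SD, n = 3 each).

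The 3 copies with most reads show how close these sequences are. A stretch of 80 bases of each gene's coding sequence is set beside that of its copy, at the place with most differences where there are any, both 5′ to 3′ on the transcribed strand and read from the GENCODE M21 transcripts of mm10, with differing bases in capitals. Gm15500, a transcribed processed pseudogene at chr7:114705217-114706235 on the minus strand, is identical to all 891 coding bases of Rpl5 (chr5:107900502-107909005, plus strand), which helps to carry 5S RNA into the large subunit and restrains Mdm2.
Rpl5: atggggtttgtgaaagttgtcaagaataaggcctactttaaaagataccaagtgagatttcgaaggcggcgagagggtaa
Gm15500: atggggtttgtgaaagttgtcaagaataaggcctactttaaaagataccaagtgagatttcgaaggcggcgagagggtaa
Rpsa-ps10 (chr3:150072658-150073542, minus strand) differs from Rpsa (chr9:120127689-120132369, plus strand), a small-subunit protein also known as the laminin receptor, at 6 of 885 bases.
Rpsa: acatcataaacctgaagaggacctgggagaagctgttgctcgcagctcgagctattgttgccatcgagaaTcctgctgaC
Rpsa-ps10: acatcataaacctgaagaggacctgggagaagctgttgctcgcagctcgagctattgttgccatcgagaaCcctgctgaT
Gm11478 (chr11:86630428-86631026, minus strand) differs from Rpl13a (chr7:45125558-45128761, minus strand), a large-subunit protein, at 8 bases with 2 gaps over 597 aligned bases.
Rpl13a: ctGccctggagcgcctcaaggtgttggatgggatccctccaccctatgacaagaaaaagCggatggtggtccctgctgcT
Gm11478: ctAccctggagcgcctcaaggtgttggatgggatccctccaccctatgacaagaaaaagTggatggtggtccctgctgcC

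Gm15500 held 149762 reads and Rpl5 72870, a ratio between 186% and 232% in the single libraries. Rpsa-ps10 held 186532 reads and Rpsa 122054 (140% to 161%), and Gm11478 held 145109 and Rpl13a 179968 (75.7% to 88.5%). Another pair of this kind was Rpl3-ps1 with Rpl3, at 222% over the 12 libraries (158% to 287% in single libraries). The gene most exposed was Rpl24, with 3 to 74 reads in a library and 432 in all, whose 2 copies held 10410. Rpl41, Rpl8, Rps21, Rps9 and Rps27l were among 10 genes with no such copy in the table. Of these, Rps21 and Rps9 each had 1 near-identical pseudogene in GENCODE M21 but no row for it. Rps4l, another of the 10, had no coding sequence in the search, so its copies were sought by symbol only. Copies of Rpl4, Rpl32 and Rps15 held 10.9%, 4.39% and 7.51% as many reads as the gene. How reads with several positions were counted is not given in the sources used here, so the level of a gene with near-identical copies is uncertain.

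**Figure D1:**
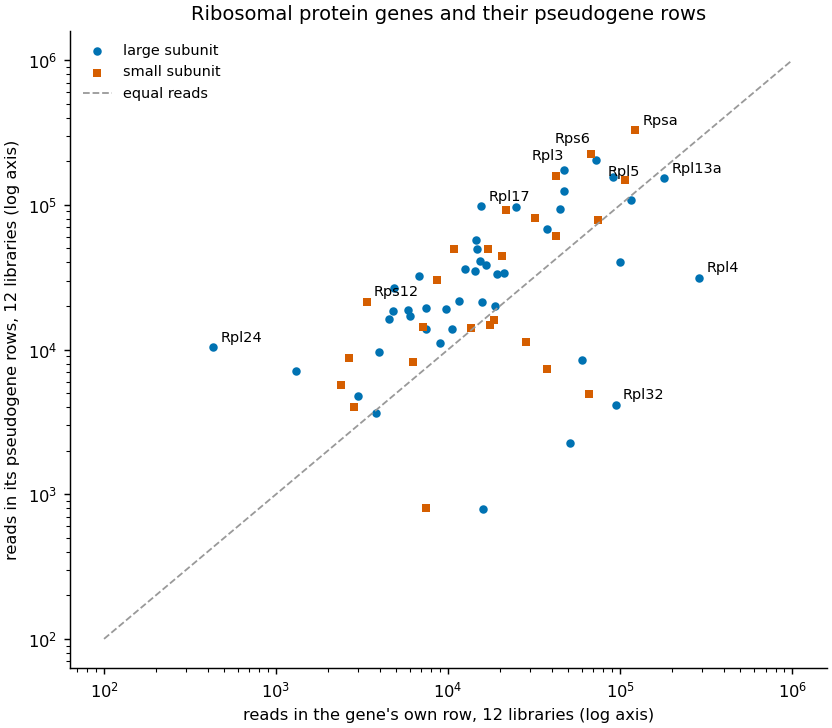
Reads in each gene's own row (x axis, log scale) against reads summed over its pseudogene rows (y axis, log scale), both over 12 libraries, for the 68 genes with at least 1 such row (circles, large subunit; squares, small subunit). Most points lie above the dashed line of equal reads, Rpl24 farthest, while Rpl4 and Rpl32 lie far below it.

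Levels in the genes' own rows spanned a wide range, while the proteins enter the ribosome in fixed proportions. The deposited RPKM divides by a gene length that sums all annotated transcripts for most genes, and RPKM over merged exons (GENCODE M21) was therefore computed beside it. The rank correlation of both scales over the 78 genes was 0.84. On the deposited scale the median gene stood at 17.4 RPKM, against 4.89 over the 15478 genes tested. Rpl4, a protein that lines the peptide exit tunnel, was highest on both scales, at 580 RPKM as deposited and 411 over merged exons. Rpl32 (524 RPKM as deposited) and Rpl8 (415), which lies near the peptidyl transferase centre, followed. Among small-subunit genes Rpsa (189 RPKM) and Rps15 (174), which sits by the decoding site, were highest as deposited. Over merged exons the span from Rpl24 to Rpl4 was 341-fold, and the medians were 24.5 RPKM for large-subunit and 20.9 for small-subunit genes. Rpl24 held 432 reads in its own row against 10410 in its copies, while copies of Rpl4 held 10.9% as many reads as the gene. The part of read placement in this span was not tested. The 5 genes with most reads held 29.5% of all reads in the 78.

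**Figure D2:**
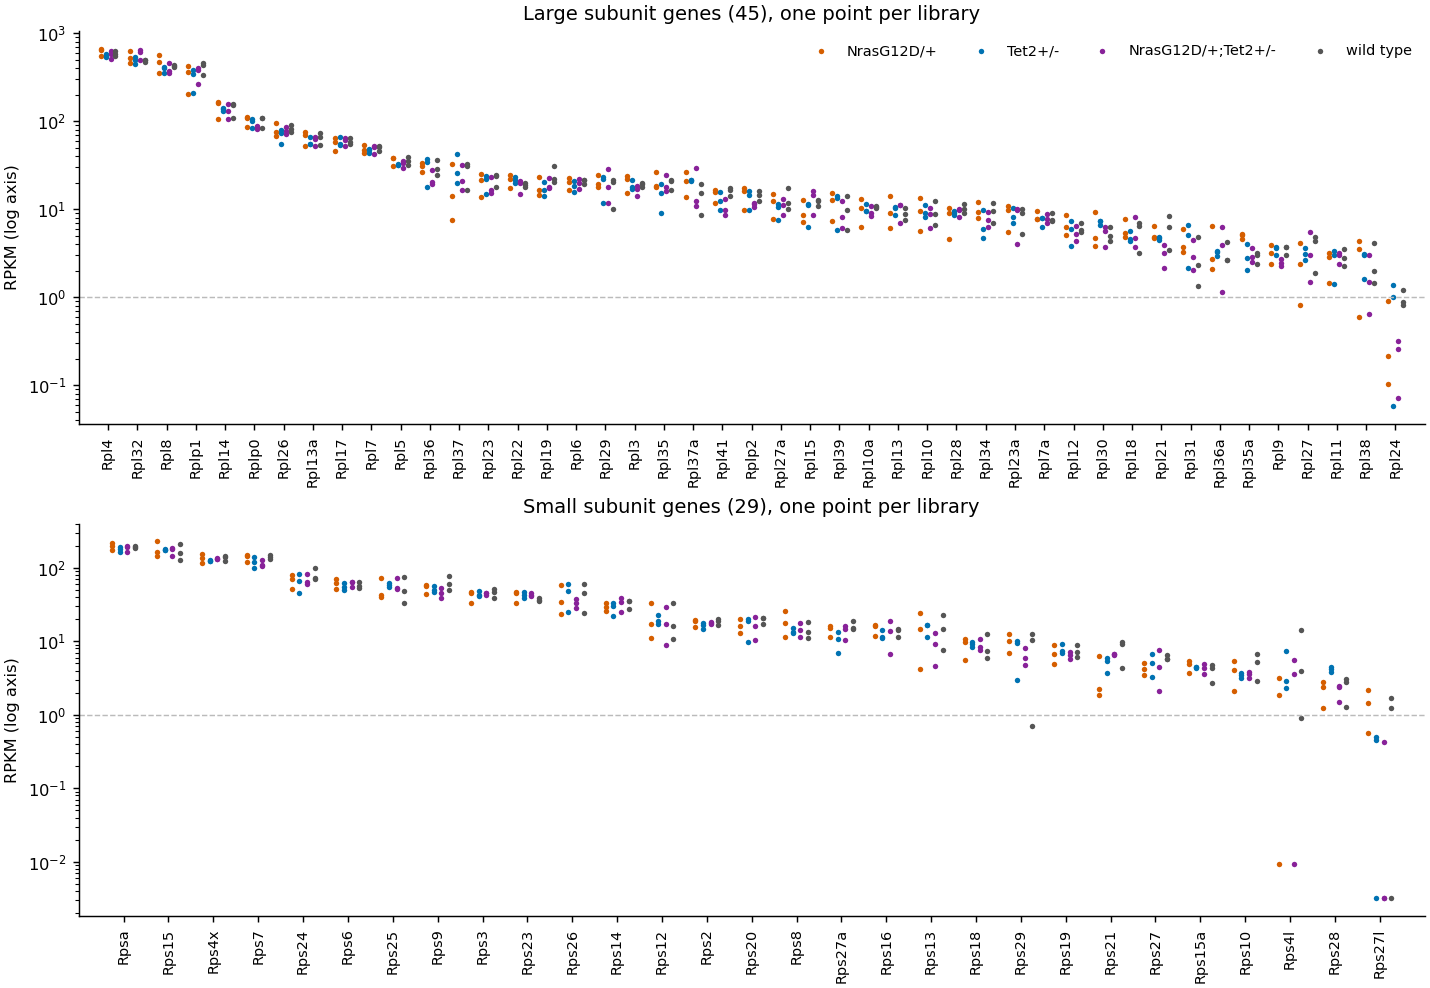
Deposited RPKM (log axis) of 45 large-subunit and 29 small-subunit genes, 1 point per library and colour by genotype, with genes ordered by mean level and a dashed line at 1 RPKM. Genotypes overlie each other for most genes, and the widest scatter is at the low end, where the lowest points of Rps27l and Rps4l are libraries with 0 reads.

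On the deposited scale the lowest were Rpl24, Rpl38 and Rpl11 of the large subunit and Rps27l, Rps28 and Rps4l of the small. Over merged exons Rpl24, Rpl27 and Rpl35a were lowest in the large subunit and Rps27l, Rps13 and Rps4l in the small. Rps27l, a paralog of Rps27 that p53 induces, had 46, 173 and 141 reads in Nras mutants, 0, 32 and 35 in Tet2 mutants, 0, 0 and 33 in compound mutants and 0, 84 and 158 in wild type. All 3 Nras mutant libraries thus lay above all 3 compound mutant libraries, without passing the test (limma, unadjusted p = 0.0699, adjusted p = 1). Rps4l, a paralog of Rps4x, had 53, 0 and 110 reads in Nras mutants, 240, 71 and 57 in Tet2 mutants, 0, 180 and 99 in compound mutants and 272, 21 and 130 in wild type, and the genotypes overlapped. A count of 0 in a library allows up to 3 reads by counting error alone. For both genes the size of a fitted log2 difference depends on the prior count, so none is given. The other paralogs listed, Rpl3l, Rpl10l and Rpl39l, were not analysed here.

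RefSeq promoters (GRCm38.p6) were matched for 57 of the 78 genes. Any link between these sequences and the level of the genes across libraries was not tested. A run of at least 8 C or T on the transcribed strand was sought between 25 bases before and 30 after each annotated start. At any of the gene's listed starts, it was present in 57.9% of the 57 genes and in 23.6% of all 27025 genes with a promoter. Such a run may lie wholly before the annotated start, as in Rpl4 below, or begin after it, as in Rpl11 and Rps7. It therefore need not be a TOP motif at the start of the message. The motif CCGGAAG, an ETS-type element searched on both strands from 250 bases before to 50 after the start, was present in 42.1% of the genes against 9.93%, counted in the same way. AAGATGG, a YY1-type element whose first 3 letters may overlap the end of CCGGAAG, was present in 15.8% against 7.28%, and the E-box CACGTG in 10.5% against 8.09%. A match is a match of letters and no binding was measured. In the 5 windows printed here, from 25 bases before to 30 after the start, capitals mark the longest C or T run (7 bases in Rpsa, under the minimum of 8), at chr9:64173362-64173416 (plus strand) for Rpl4, chr4:136053364-136053418 (minus strand) for Rpl11, chr7:141447626-141447680 (plus strand) for Rplp2, chr9:120127741-120127795 (plus strand) for Rpsa and chr12:28635924-28635978 (minus strand) for Rps7.
Rpl4: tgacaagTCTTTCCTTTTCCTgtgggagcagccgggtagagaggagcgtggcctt
Rpl11: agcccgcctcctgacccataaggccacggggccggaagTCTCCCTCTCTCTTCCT
Rplp2: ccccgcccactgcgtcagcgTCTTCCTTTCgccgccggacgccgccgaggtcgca
Rpsa: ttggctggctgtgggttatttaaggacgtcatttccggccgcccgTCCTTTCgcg
Rps7: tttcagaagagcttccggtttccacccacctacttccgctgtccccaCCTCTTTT

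Across libraries most of the genes were high or low together, and libraries of 1 genotype lay farther apart than the genotype means. For the 77 genes that reached 1 RPKM in at least 3 libraries (all but Rpl24), the log2 level was taken relative to the gene's mean over the 12 libraries. Its median over the 77 was -0.27, 0.19 and 0.25 in Nras mutants, -0.15, 0.10 and -0.03 in Tet2 mutants, -0.23, 0.07 and 0.01 in compound mutants and -0.01, 0.01 and 0.18 in wild type. The lowest 3 were replicate 1 of Nras, compound and Tet2 mutants, in which 68, 64 and 51 of the 77 genes lay below their own means. The SD of this median within genotypes was 0.183, larger than any gap between genotype means, which were 0.06 ± 0.28 in Nras mutants, -0.03 ± 0.13 in Tet2 mutants, -0.05 ± 0.16 in compound mutants and 0.06 ± 0.11 in wild type (SD, n = 3 each). In a fit of sex within genotype, added after the values were seen, 30 of 77 genes were lower in males at an unadjusted p under 0.05 (5.91% of all genes were), and 0 passed after adjustment (limma; 0.00646% of all genes did). Large and small subunits followed each other. The large minus small median was 0.05 ± 0.04 in Nras mutants, 0.02 ± 0.01 in Tet2 mutants, -0.06 ± 0.09 in compound mutants and -0.03 ± 0.11 in wild type.

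**Figure D3:**
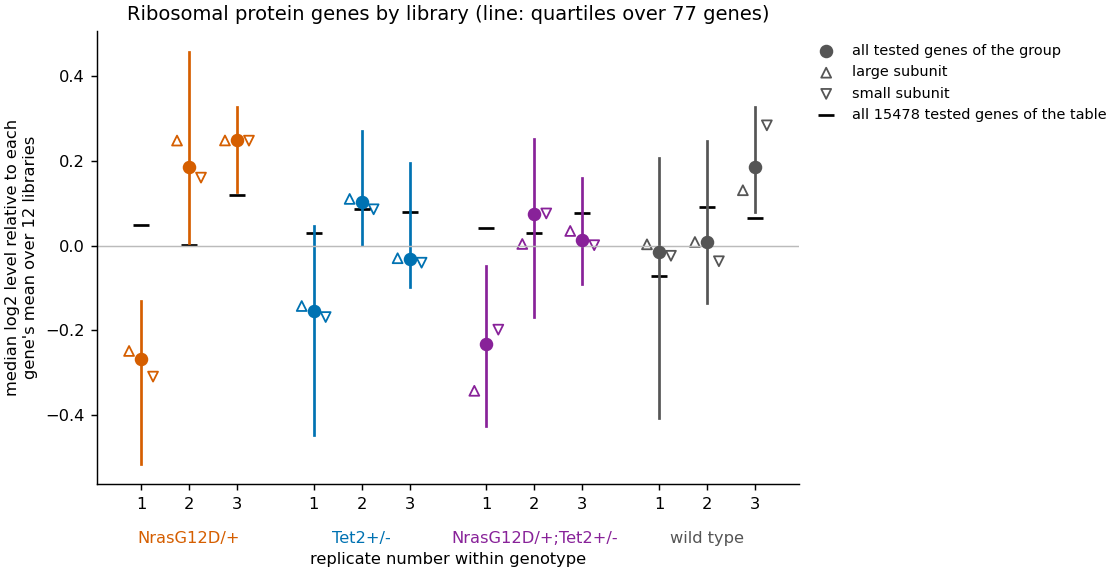
Median log2 level of the 77 tested ribosomal protein genes relative to each gene's mean (y axis) in each library (x axis, by genotype and replicate number), with vertical lines from the lower to the upper quartile, triangles for large and inverted triangles for small subunit, and black dashes for all 15478 tested genes. Replicate 1 of Nras, Tet2 and compound mutants lies at -0.27, -0.15 and -0.23, below the other libraries, while wild-type replicate 1 lies at -0.01.

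As a share of all reads in genes, the 78 genes took 0.864% ± 0.140 in Nras mutants, 0.782% ± 0.0488 in Tet2 mutants, 0.806% ± 0.0730 in compound mutants and 0.870% ± 0.0645 in wild type (SD, n = 3 each). Single libraries ran from 0.702% (Wilson 95% interval 0.699% to 0.705%) in Nras replicate 1 to 0.951% (0.948% to 0.955%) in Nras replicate 2, so that Nras mutants held both ends of the range. These intervals cover counting error only. With pseudogene rows added, the shares were 1.91% ± 0.316 in Nras mutants, 1.71% ± 0.0815 in Tet2 mutants, 1.79% ± 0.169 in compound mutants and 1.91% ± 0.154 in wild type. In RNA from sorted cells in bulk, fewer cells of a type and less RNA per cell cannot be told apart.

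The question of the first comparison was what the activated Ras allele alone changes. Between Nras mutants and wild type no ribosomal protein gene passed (limma, 0 of 77 at adjusted p under 0.05, where 0.00646% of all 15478 genes passed). The log2 differences were positive for 38 genes and negative for 39, with a median of -0.00 against 0.01 over all genes tested. At an unadjusted p under 0.05 there were 2 genes, or 2.60%, against 5.61% of all genes, and voom on the recovered reads gave 2 and called 0. Rps21 is a small-subunit protein with no pseudogene row but 1 near-identical pseudogene in GENCODE M21. It stood at 2.27, 1.86 and 6.31 RPKM in Nras mutants against 4.36, 9.28 and 9.86 in wild type. Only the highest Nras mutant library reached into the wild-type range, and the log2 difference was -1.30 ± 0.46 (SE; interval -2.33 to -0.28, limma adjusted p = 0.870). Rpl35a, a large-subunit gene mutated in Diamond-Blackfan anemia, stood at 5.18, 5.05 and 4.55 RPKM against 3.18, 2.38 and 3.06 in wild type. The groups did not overlap, and the log2 difference was 0.79 ± 0.29 (interval 0.14 to 1.44, limma adjusted p = 0.870). With its 12 pseudogene rows added, the value was 0.51. Rps27, at 3.51, 4.15 and 5.14 RPKM against 5.84, 6.52 and 5.79 in wild type, was the 1 gene entirely lower, as 4.48% of all genes were, and Rpl35a the 1 entirely higher, against 5.27%. Rps27 was named after its values were seen. The next smallest p were those of Rpl19 (log2 -0.44) and Rpl28 (-0.45), whose copies held 290% and 477% as many reads, and with them the values were -0.16 and -0.15.

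The next question was what loss of 1 Tet2 copy changes. Between Tet2 mutants and wild type again 0 of 77 passed (limma; 0.00646% of all genes passed), but 52 genes were negative and 25 positive, where 54.3% of all genes were positive. The median log2 difference was -0.10 against 0.04 over all genes. With sex as a covariate, a fit added after the data were seen, the median was -0.01. Tet2 mutants were the 1 genotype with 2 male libraries. Every library numbered 1 was male, so sex and replicate number cannot be told apart. The part of either in this difference was not tested. At an unadjusted p under 0.05 there were 2 genes (2.60%, against 3.35% of all genes), and voom gave 1 and called 0. Rps27a, which is made as a fusion with ubiquitin, stood at 6.98, 13.4 and 10.7 RPKM in Tet2 mutants against 14.95, 18.8 and 14.996 in wild type. Every Tet2 mutant library was below every wild-type library, with a log2 difference of -0.69 ± 0.26 (interval -1.27 to -0.11, limma adjusted p = 1). Its 6 pseudogene rows held 289% as many reads, and with them the difference was -0.45. Rps28, mutated in Diamond-Blackfan anemia, pointed the other way, with 3.81, 4.47 and 4.22 RPKM in Tet2 mutants against 1.28, 2.79 and 3.03 in wild type (log2 0.91 ± 0.43, limma adjusted p = 1). The groups did not overlap for 3 genes that were higher, Rps28, Rpl30 and Rpl37a (3.90%, against 5.24% of all genes), and 3 that were lower, Rps27a, Rpl19 and Rpl8 (3.90%, against 4.01%). Rpl30 and Rpl37a were named after their values were seen. Rpl19, a large-subunit protein, stood at 14.1, 20.3 and 16.7 RPKM against 30.8, 22.1 and 20.5 in wild type (log2 -0.51 ± 0.22, limma adjusted p = 1), and the difference was -0.17 with its pseudogene rows.

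The joint effect of both alleles was read between compound mutants and wild type. None of the 77 passed (limma; 0.00646% of all genes passed), and 60 were negative and 17 positive, where 51.5% of all genes were positive. The median was -0.10 against 0.02 over all genes. Most of the 77 were high or low together across libraries, so their signs are not independent. By subunit the median was -0.10 for 45 large-subunit and -0.11 for 32 small-subunit genes. At an unadjusted p under 0.05 there were 3 genes (3.90%, against 6.42% of all genes), and voom gave 2 and called 0. Rpl41, the smallest ribosomal protein and a gene with no pseudogene row, stood at 8.57, 9.86 and 13.0 RPKM in compound mutants against 14.2, 17.3 and 16.5 in wild type. All compound mutant libraries lay below all wild-type libraries, with a log2 difference of -0.63 ± 0.22 (interval -1.12 to -0.14, limma adjusted p = 0.754). Rpl21, a large-subunit protein, stood at 2.16, 3.21 and 3.95 RPKM against 8.45, 6.23 and 3.43 in wild type, an overlap made by wild-type replicate 3. Its log2 difference was -0.91 ± 0.34 (interval -1.67 to -0.15, limma adjusted p = 0.754), and -0.44 with its 19 pseudogene rows, which held 125% as many reads. Rps9, which helps to form the entry channel of the message, stood at 45.6, 39.1 and 52.9 RPKM against 77.8, 50.5 and 59.5 in wild type (log2 -0.44 ± 0.18, limma adjusted p = 0.760). Rps7, a small-subunit protein that also binds Mdm2, stood at 109, 107 and 127 RPKM against 151, 132 and 141 in wild type (log2 -0.31 ± 0.14, limma adjusted p = 0.767), and the difference was -0.06 with its pseudogene rows. The groups did not overlap for 4 lower genes, Rpl41, Rps7, Rpl9 and Rplp2 (5.19%, against 5.16% of all genes), and 1 higher, Rps23 (1.30%, against 6.09%), the last named after its values were seen.

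**Figure D4:**
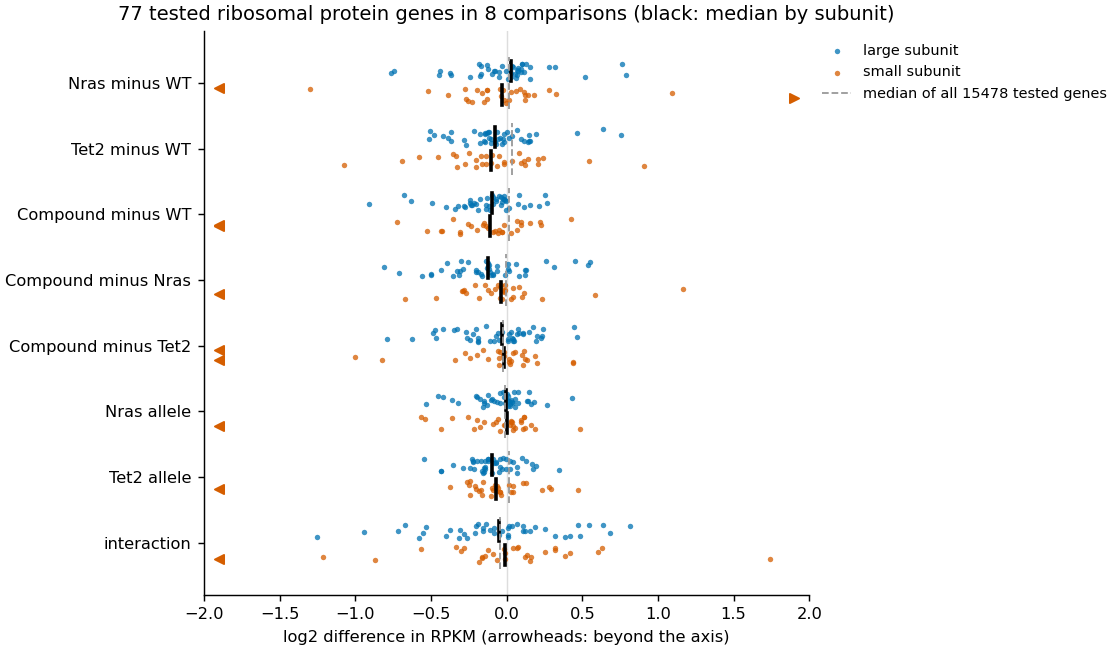
Log2 difference in RPKM (x axis) of the 77 tested genes in 8 comparisons (rows), blue for large and orange for small subunit, with black bars at the subunit medians, dashed grey lines at the median of all 15478 tested genes, and arrowheads for Rps27l and Rps4l beyond the axis. The medians stay close to 0, and in the Tet2 minus WT, compound minus WT, compound minus Nras and Tet2 allele rows both subunits lie left of the median of all genes.

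Each of these 3 comparisons uses the same 3 wild-type libraries. Compound mutants were also set against each single mutant, which share the compound mutant libraries. Against Nras mutants 0 of 77 passed (limma; 0% of all genes passed), and 55 were negative and 22 positive, where 49.1% of all genes were positive. The median was -0.10 against -0.01 over all genes. At an unadjusted p under 0.05 there were 4 genes (5.19%, against 4.04% of all genes; voom gave 2 and called 0). Rps21 led, at 6.83, 6.72 and 6.54 RPKM in compound mutants against 2.27, 1.86 and 6.31 in Nras mutants, with no overlap and a log2 difference of 1.16 ± 0.46 (limma adjusted p = 1). Rpl35a stood at 3.66, 2.91 and 2.55 RPKM in compound mutants, all below Nras mutants (log2 -0.71 ± 0.29, limma adjusted p = 1, and -0.29 with its pseudogene rows). In all, 1 gene was entirely higher (1.30%, against 4.15% of all genes) and 3 entirely lower (3.90%, against 4.33%). Against Tet2 mutants 0 of 77 passed (limma; 0.00646% of all genes passed), 40 were negative and 37 positive, and 1 gene had an unadjusted p under 0.05 (1.30%, against 5.45%; voom gave 0 and called 0). That gene was Rps28, at 2.41, 2.46 and 1.51 RPKM in compound mutants against 3.81, 4.47 and 4.22 in Tet2 mutants (log2 -1.003 ± 0.43, limma adjusted p = 0.904), and the difference was -0.66 with its pseudogene rows. With sex as a covariate the median over the 77 was -0.11, against -0.02 without it. The groups did not overlap for 2 higher genes (2.60%, against 6.22% of all genes) and 4 lower ones (5.19%, against 6.53%).

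**Figure D5:**
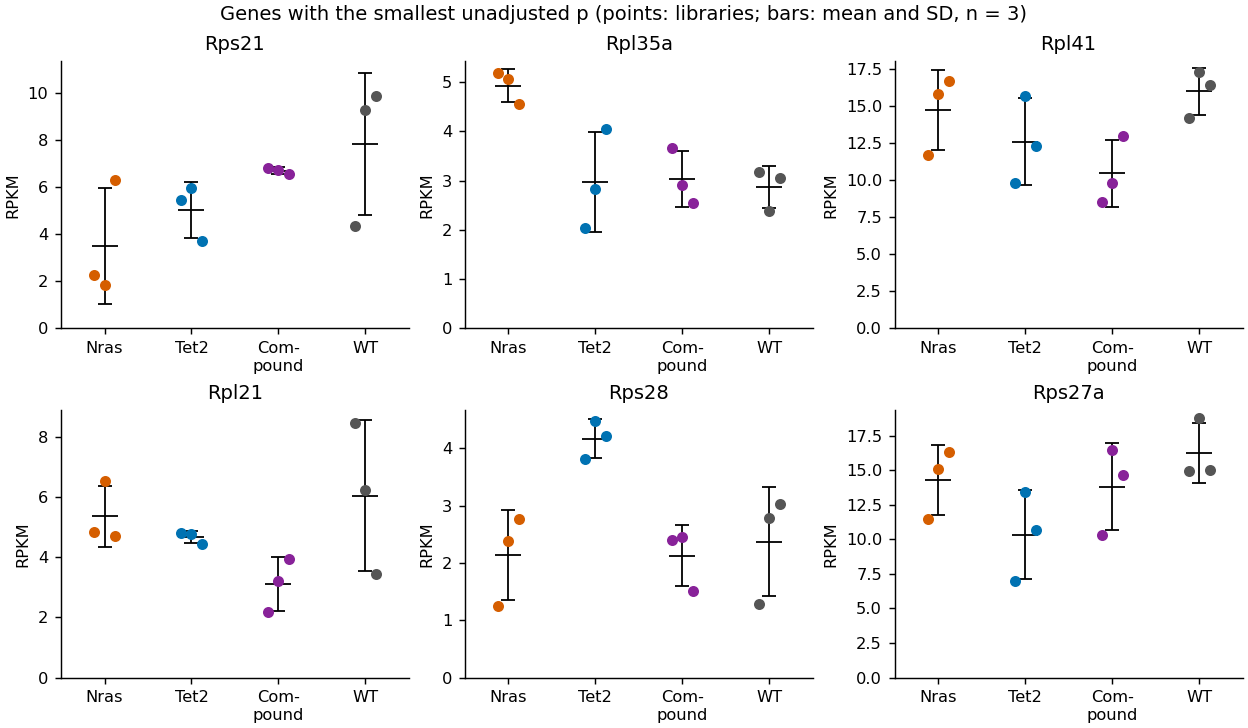
RPKM (y axis, from 0) of 6 genes among those with the smallest unadjusted p, by genotype (x axis), with 1 point per library and bars for the mean and SD (n = 3). Rpl35a is highest in Nras mutants and Rps28 in Tet2 mutants, and Rps21 shows 2 low Nras mutant libraries beside 1 at 6.31.

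Averaged over the other allele, carriers of NrasG12D (6 libraries) differed from the 6 others by a median log2 value of -0.01, with 38 genes positive and 39 negative. None of the 77 passed, and none had an unadjusted p under 0.05 (limma; 0.0323% and 7.24% of all genes; voom gave 1 and called 0). No gene lay entirely higher (0.459% of all genes did) or lower (0.388%) in carriers. Carriers of Tet2+/- differed by a median of -0.09 against 0.02 over all genes. Of the 77 genes 56 were negative and 21 positive, where 52.5% of all genes were positive. None passed (limma; 0% of all genes), no gene separated the 6 carriers from the 6 others (0.0646% of all genes lay entirely higher and 0.0646% entirely lower), and 3 genes had an unadjusted p under 0.05 (3.90%, against 3.81%; voom gave 4 and called 0). They were Rpl41 (log2 -0.43 ± 0.16), Rps7 (-0.26 ± 0.10) and Rpl21 (-0.55 ± 0.24), each with limma adjusted p = 0.963. With their pseudogene rows Rps7 stood at -0.10 and Rpl21 at -0.23. With sex as a covariate the median of the Tet2 allele was -0.04. The interaction, which asks whether the compound mutant departs from the sum of both single effects, had a median of -0.02 against -0.05 over all genes, and of -0.11 with sex as a covariate. None of the 77 passed (limma; 0.0129% of all genes), and 1 had an unadjusted p under 0.05 (1.30%, against 3.38%; voom gave 1 and called 0). That gene was Rps21, with a log2 interaction of 1.74 ± 0.65 (interval 0.29 to 3.19, limma adjusted p = 0.996).

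A p that misses the threshold does not show that the levels were equal, so the intervals bound what these libraries could hide. The 95% interval lay within 1 log2 unit on either side of 0 for 53 of 77 genes in the Nras comparison with wild type, 48 in that of Tet2 and 53 in that of compound mutants. For the 3 steadiest genes the bounds were narrow. Rpl7, a large-subunit protein, had intervals of -0.30 to 0.19 in Nras, -0.35 to 0.14 in Tet2 and -0.28 to 0.21 in compound mutants. Those of Rps4x, the X-linked small-subunit gene, were -0.26 to 0.22, -0.37 to 0.10 and -0.27 to 0.20, and those of Rpl4 -0.22 to 0.36, -0.37 to 0.22 and -0.33 to 0.26 in the same order of genotypes. The SD of log2 RPKM over the 12 libraries was 0.11 for all 3, against 4.06 for Rps27l, 3.49 for Rps4l and 1.65 for Rpl24. It followed depth. The median SD was 0.53 in 28 genes under 1000 reads a library, 0.33 in 24 genes with 1000 to 3000 and 0.20 in 25 genes with 3000 or more, and its rank correlation with mean reads was -0.85 across the 77 genes, which share their libraries.

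By role, none of the 3 stalk genes passed in any comparison. Rplp1 stood at 205, 360 and 420 RPKM in Nras mutants, 209, 385 and 347 in Tet2 mutants, 264, 376 and 407 in compound mutants and 457, 333 and 439 in wild type. Replicate 1 of each mutant genotype was its lowest, while wild-type replicate 1 was the highest of all 12. The log2 differences from wild type were -0.37, -0.42 and -0.24 in Nras, Tet2 and compound mutants, with limma adjusted p of 0.882, 1 and 0.892. Rplp0, the anchor of the stalk, averaged 102 ± 14.6 RPKM in Nras mutants, 96.7 ± 12.4 in Tet2 mutants, 84.4 ± 3.59 in compound mutants and 100 ± 15.01 in wild type. Rplp2 averaged 14.4 ± 4.08, 13.4 ± 3.12, 11.3 ± 0.629 and 14.4 ± 1.87 in the same order. Of the 5S RNA partners, Rpl5 averaged 35.9 ± 4.21 RPKM in Nras mutants, 32.2 ± 0.0808 in Tet2 mutants, 32.5 ± 2.76 in compound mutants and 35.7 ± 3.89 in wild type, and Rpl11 averaged 2.52 ± 0.929, 2.59 ± 1.02, 2.87 ± 0.424 and 2.86 ± 0.633. Their copies held 282% and 325% as many reads as the genes.

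The 22 genes of the list mutated in Diamond-Blackfan anemia were all tested, and none passed in any comparison. Against wild type 8 were positive in Nras, 7 in Tet2 and 6 in compound mutants, with median log2 differences of -0.07, -0.15 and -0.08, where the medians over all 77 were -0.00, -0.10 and -0.10. Of the 9 proteins at the tunnel exit 6, 5 and 1 were positive, with medians of 0.08, 0.09 and -0.05. Of the 6 at the message entry and decoding site 2 were positive in each genotype, with medians of -0.09, -0.11 and -0.04. The 4 X-linked genes, Rpl10, Rpl36a, Rpl39 and Rps4x, had medians of 0.05, 0.05 and -0.07. Rps6, the target of S6 kinase and so the usual mark of mTOR activity at the protein level, had RNA differences of 0.09, -0.06 and 0.07.

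None of 7 ribosomal proteins under other symbols passed. Rps3a1 averaged 233 ± 47.6 RPKM in Nras mutants, 219 ± 14.8 in Tet2 mutants, 240 ± 48.4 in compound mutants and 218 ± 32.5 in wild type. Gnb2l1 (Rack1, a scaffold on the small subunit) averaged 76.6 ± 5.93, 65.7 ± 6.20, 68.0 ± 6.89 and 76.2 ± 13.0 RPKM, and Fau, the other fusion with a ubiquitin-like protein, 17.97 ± 5.29, 17.5 ± 3.15, 14.5 ± 1.42 and 18.7 ± 5.65. The 19 translation factors whose messages share the TOP start did not pass either. Their medians against wild type were 0.03 in Nras, -0.00 in Tet2 and 0.03 in compound mutants, with 12, 9 and 10 positive. Of 17 tested genes of mTOR and LARP1 control none passed, with medians of -0.00, -0.06 and -0.03. Against wild type the smallest p was that of Rheb, the GTPase that activates mTOR, at 6.36 RPKM in Nras mutants and 6.32 in compound mutants against 8.76 in wild type (limma adjusted p = 0.870 and 0.762). Of 10 chaperones and surveillance factors of ribosomal proteins none passed, with medians of -0.12, -0.09 and -0.20. Grwd1, a chaperone of Rpl3, averaged 3.75, 4.76, 4.05 and 5.59 RPKM in Nras, Tet2, compound mutants and wild type. Of 74 tested mitochondrial ribosomal protein genes none passed, with medians of -0.01, -0.11 and -0.04. Mrpl1 averaged 2.34 RPKM in compound mutants against 5.20 in wild type (log2 -1.14 ± 0.31, limma adjusted p = 0.740).

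The correlation of each gene with the median of the 77 over the 12 libraries had a median of 0.61. It was above 0 for 74 genes and above 0.5 for 48. Among the highest was Rpl3 (0.88), and lowest Rps15a (-0.16), Rpl37 (-0.16) and Rpl11 (-0.01). The median includes the gene itself, and all values share library size scaling. Between single genes, over 2926 pairs, the median correlation was lower, at 0.33. Shares of all tested genes with such values were not computed, so the counts are not shown to be particular to these genes. Among other genes, the 5 whose level followed the median most closely were Rps27a-ps2 (0.95), Rpl10-ps3 (0.93), Rpl10-ps1 (0.91), Gm8430 (0.91) and Aprt (0.90), an enzyme of purine salvage. All but Aprt are pseudogenes of the genes described here, Gm8430 and Rps27a-ps2 of Rps27a. The table held 2512 and 2335 genes at 0 reads in replicate 1 of Tet2 and Nras mutants, 2546 in that of compound mutants and 3824 in that of wild type, against 1000 to 3268 in the other libraries, and mitochondrial genes took 4.99% to 6.96% of reads. The part of these and of sex in the level of the ribosomal protein genes was not tested.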

How the data were processed

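The authors deposited 1 table of log2 RPKM, an other unit than counts, for 18546 genes in 12 libraries of RNA depleted of ribosomal and mitochondrial RNA and made with a stranded kit, per the labels' protocols. CASAVA 1.8.2, TopHat2, edgeR and mm10 are named in the submitters' processing notes with no role. The values fitted whole reads with a prior of 0.25 to a tolerance of 0.001 reads for all genes, which gave depth and shares; the table length equals the summed length of all transcripts for 68.6% of 17263 matched genes. The 15478 genes that reached 1 RPKM in 3 or more libraries entered a linear model (limma 3.58.1, R 4.3.3) with 1 mean per genotype, a variance trend, 8 residual degrees of freedom and Benjamini-Hochberg adjustment over all of them, two-sided, at 0.05. Pseudogene copies were found with blastn 2.17.0 among 13399 GENCODE M21 pseudogene transcripts. Members and lists were chosen with earlier results of these data known. Named genes were the 3 highest of each subunit and the 3 lowest, the 4 smallest p of each comparison (2 where comparisons overlap), the stalk, 5S and paralog lists, the 3 most and 3 least variable, and the 5 most similar other genes; further genes were chosen after their values were seen, and of other lists at most the 2 smallest p. A few genes are not reported here by name. Replicates measure only the spread between these libraries. Alternatives added after the data were seen were sex as a covariate, the fits without the 4 libraries numbered 1 and without wild-type replicate 1 with Nras replicate 2, and members summed with their pseudogene rows.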

Additional observations from a re-analysis of the deposited data

How the results depend on the processing

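With limma or voom, no ribosomal protein gene passed in any of the 24 or 25 settings of a comparison, and the smallest adjusted p over those settings was 0.281 for Nras, 0.662 for Tet2 and 0.483 for compound mutants, each against wild type. Leaving out 1 library at a time, the median log2 difference ran from -0.10 to 0.15 for Nras, from -0.14 to -0.03 for Tet2 and from -0.16 to -0.03 for compound mutants against wild type. It ran from -0.26 to 0.03 for compound against Nras mutants, -0.07 to 0.08 for compound against Tet2 mutants, -0.07 to 0.08 for the Nras allele, -0.19 to -0.03 for the Tet2 allele and -0.21 to 0.084 for the interaction. The interaction's -0.21 came without Nras replicate 1. The SD of the median level within genotypes, 0.183, is that of single libraries. An interaction combines the means of all genotypes, so this SD does not measure how far it could vary. The cause of the shift was not tested. Genes with an unadjusted p under 0.05 for compound against Nras mutants numbered 4 with all libraries, 9 without Nras replicate 1 and 12 without the 4 libraries numbered 1, where 4.04%, 4.78% and 5.28% of all genes had one. For the Tet2 allele they numbered 3 with all libraries and 9 without Nras replicate 1, against 3.81% and 4.7% of all genes. Without the 4 libraries numbered 1, chosen after the data were seen, the medians against wild type were 0.11 in Nras, -0.06 in Tet2 and -0.04 in compound mutants. Over all tested genes, with genotype means removed, the 18 same-numbered pairs of libraries correlated between -0.13 and 0.14, 2 above 0.1. Such weak values do not show that the number carries no structure, since the 4 libraries numbered 1 were all male. With the replicate block 0 genes were called in each comparison. Each genotype has each number once, so the block could not change the log2 differences, and equal medians say nothing about the number. In Nras, Tet2 and compound mutants against wild type, 3, 4 and 2 genes had an unadjusted p under 0.05 with the block. Of all genes, 6.02%, 3.51% and 6.77% had one. The spread between libraries was wider in genes with fewer reads.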

Other observations

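The median level of ribosomal protein genes differed between male and female libraries, a pattern seen in these data and fitted afterwards on the same libraries, so the fit is a description and no independent test. The median log2 level of the 77 genes was -0.27 to -0.01 in the 5 male libraries and 0.01 to 0.25 in the 7 female libraries. In wild type the gap was small, with the male library at -0.01 and the nearest female one, replicate 2, at 0.01. That order turned round with pseudogene rows summed (0.01 in the male library and -0.02 in replicate 2) and by share of reads (0.902% and 0.796%). In a fit of sex within genotype, 73 of 77 genes were negative (94.8%, against 56.6% of all 15478 genes), with a median male minus female difference of -0.29 against -0.05 over all genes. By subunit the median was -0.23 for the large and -0.36 for the small subunit, where 32 of 32 genes were negative. Most of the 77 were high or low together across libraries, so these signs are not independent. At an unadjusted p under 0.05, 30 genes were lower in males (5.91% of all genes were) and 0 higher, while 0 passed after adjustment by limma (0.00646% of all genes did). The smallest p was that of Rpl23a, at a log2 difference of -0.89 (95% interval -1.20 to -0.57, limma adjusted p = 0.257), followed by Rpl10 (-0.68), an X-linked gene, and Rpl34 (-0.58). Every library numbered 1 is male and only 1 other is, so sex and whatever the number stands for cannot be told apart.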
